A study of Mus musculus with 11 samples.

Results

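The genes described here encode the subunits of voltage-gated and potassium channels, measured in basal progenitors of the mouse cortex at embryonic day 16 (E16) and embryonic day 13 (E13). They were taken by platform gene symbol: every symbol starting with Kcn or Cacn, every symbol of Scn followed by a digit, and Abcc8. This gave 122 genes of the 19057 with a named probe, carried by 254 of the 45281 probes of the array. Of the 122 genes, 89 belong to potassium channels, 23 to calcium channels and 10 to sodium channels. Basal progenitors are dividing cells, placed away from the ventricular surface, that give rise to cortical neurons. They were isolated by flow cytometry from single embryonic cortices, 5 at E16 and 6 at E13, with the embryos of each stage drawn from 3 litters. The raw array columns of both stages end in WT, read here as wild type, and the labels name no allele, transgene or agent for either stage. The sources used here give neither the marker used for sorting nor the litter of each embryo, so the p-values count every embryo as its own sample, although litters were shared.

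Potassium channels let potassium leave a cell and so hold or restore a negative membrane potential. Leak and inward rectifier types act near rest, voltage-gated types open on depolarization, and calcium-activated types follow calcium entry. Voltage-gated sodium channels carry the rising phase of the action potential in neurons. Voltage-gated calcium channels turn depolarization into calcium entry. Most have pore-forming subunits together with auxiliary subunits that set their gating or their delivery to the membrane. Neural progenitors are known to have potassium and calcium currents and to fire few or no action potentials, and their membrane potential shifts as cortical neurogenesis proceeds.

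Levels are normalized log2 intensities of a bead array, and a gene counted as detected on an array when its deposited detection p-value was under 0.05. Each array detected between 43.6% and 45.5% of all probes. Principal component 1 (50.7% of the variance) set the stages apart, and component 2 (10.8%) placed E16 replicates 4 and 5 at 21.8 and 15.7 and E16 replicates 1 and 2 at -18.8 and -14.2. Eomes, the transcription factor that marks basal progenitors, was detected on all 11 arrays, with 10.37 ± 0.33 at E16, against 11.12 ± 0.26 at E13 (SD). Of 10 tested basal progenitor markers, 8 were lower and 1 was higher at E16. Of 12 radial glia markers, the progenitors at the ventricular surface, 3 were higher and 3 lower. Higher were Slc1a3 at 2.22 (SE 0.11, adjusted p = 1.58e-08), Ptprz1 at 1.94 (SE 0.13, adjusted p = 1.37e-07) and Fabp7 at 0.45 (adjusted p = 0.0346). Lower were Vim at -1.56 (SE 0.14, adjusted p = 1.43e-06), Prom1 at -0.92 (adjusted p = 0.00184) and Sox9 at -0.54 (adjusted p = 0.00229). Cajal-Retzius markers, an early-born neuron type of the cortical surface, had a mean log2 level of 7.02 to 7.94 across the E16 arrays and 9.17 to 10.03 across the E13 arrays, and 5 of 6 were lower at E16. Postmitotic neuron markers had a mean level of 10.63 to 11.01 at E16 and 11.05 to 11.37 at E13, with 5 of 11 lower and 0 higher at E16. Interneuron markers had a mean level of 5.44 to 5.90 at E16 and 5.85 to 7.09 at E13. Of 7 tested, 3 were lower (Nxph1, with a difference of -2.90 (SE 0.38, adjusted p = 4.77e-05), Sst and Dlx2) and Gad2 was higher by 0.77 (SE 0.18, adjusted p = 0.00501). Nxph1 was detected on 2 of 5 E16 and 6 of 6 E13 arrays, Sst on 2 and 5, and Dlx2 on 0 and 5. These 3 thus reached the 5 detected arrays needed for testing at E13 alone, as did Neurog1 of the basal progenitor and Lhx5 of the Cajal-Retzius markers. Of 3 tested oligodendrocyte lineage markers, Olig1 was higher by 1.32 (SE 0.18, adjusted p = 5.25e-05), detected on 5 of 5 E16 and 2 of 6 E13 arrays. Hba-a1, a globin of red cells, differed by 2.48 (SE 0.60, adjusted p = 0.00643). Of 7 endothelial markers, 4 were detected on 0 arrays (among them Pecam1, Cdh5 and Cldn5), Kdr and Tek on at most 1 array of a stage, and Esam on all 11 arrays (0.08, adjusted p = 0.758). Of 7 mural markers, 5 were detected on 0 arrays, Notch3 on 3 of 5 E16 and 6 of 6 E13 arrays (-0.35, adjusted p = 0.123) and Acta2 on 3 of 5 E16 and 3 of 6 E13 arrays (0.01, adjusted p = 0.961). The part of these other cells in the channel results was not tested, and in bulk RNA fewer cells of a type and less RNA per cell cannot be told apart.

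Of the 122 channel genes, 61 passed the detection filter, which asked for detection on at least 5 arrays, against 10568 of all 19057 named genes (55.5%). Another 21 were detected on 1 to 4 arrays and 40 on no array. Sodium channel genes (8 of 10 tested) and calcium channel pores (7 of 9) were mostly tested, and the sodium pores not tested, Scn7a and Scn10a, were detected on no array. Inward rectifiers (3 of 14), two-pore channels (3 of 14) and silent potassium modifiers (1 of 10) were mostly not tested. The number of channel genes detected on an array lay between 57 and 60 at E16 and between 57 and 65 at E13.

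**Figure D1:**
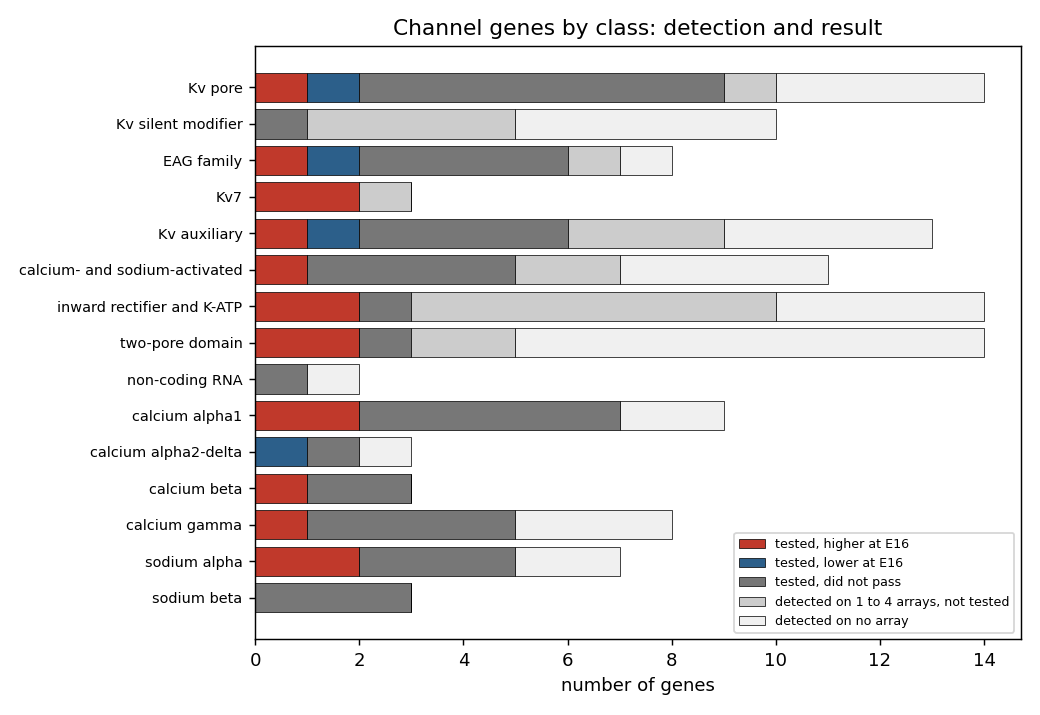
Number of channel genes in each class (horizontal axis) by result: higher at E16, lower at E16 or not past the test, and for those not tested, detected on 1 to 4 arrays or on no array. Inward rectifiers, two-pore channels and silent modifiers have the lowest shares of tested members, 3 of 14, 3 of 14 and 1 of 10.

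At E16, 16 channel genes rose and 4 fell relative to E13, and 41 did not pass the test (limma, adjusted p under 0.05 over 10568 genes). Among all genes tested, 27.1% were called, 13% higher and 14.1% lower. The channel genes had 26.2% higher and 6.56% lower, and their median log2 difference was 0.09, against -0.01 over all genes. Among the 43 channel genes detected on all 11 arrays, 12 rose (27.9%) and 1 fell (2.33%). Of all 9030 genes detected on all 11 arrays, 13.7% were higher and 13.7% lower. The other 7 of the 20 called channel genes, 3 of the 4 that fell among them, were read below detection on some arrays, more often at the stage where they were lower. Kcnh1 passed the detection filter through E13 alone, so the filter itself favoured a lower level at E16 for it. Kcnip1 and Kcnc4 had enough detected arrays at E13 alone to pass it, and Kcnj11 and Kcnh6 at E16 alone, with fewer than 5 at the other stage. Kcnq5 and Cacna1d passed with 4 of their 5 detected arrays at E16. The differences of these genes are therefore not free of the filter. With no detection filter, 13 channel genes were higher and 5 lower, while 13.2% of all genes were called, 6.25% of them as higher at E16. Kcnh6, Kcnn2 and Scn2a lost their calls there, and Kcnt1 was newly called as lower. The called genes with the largest differences were Abcc8, Cacng5, Kcnq5, Kcnk2, Scn1a and Kcnk1, all higher at E16, and Kcnc4 and Kcnip1, both lower. These 6 and 2 genes changed at least 2-fold, and over all genes tested 4.94% were called with at least that fold. Potassium channel genes had 10 higher and 3 lower of 36, calcium channel genes 4 and 1 of 17, and sodium channel genes 2 and 0 of 8. For 9 of the genes that rose and 3 of those that fell, no E16 array overlapped an E13 array, and over all genes 8.16% were higher and 8.80% lower without overlap.

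**Figure D2:**
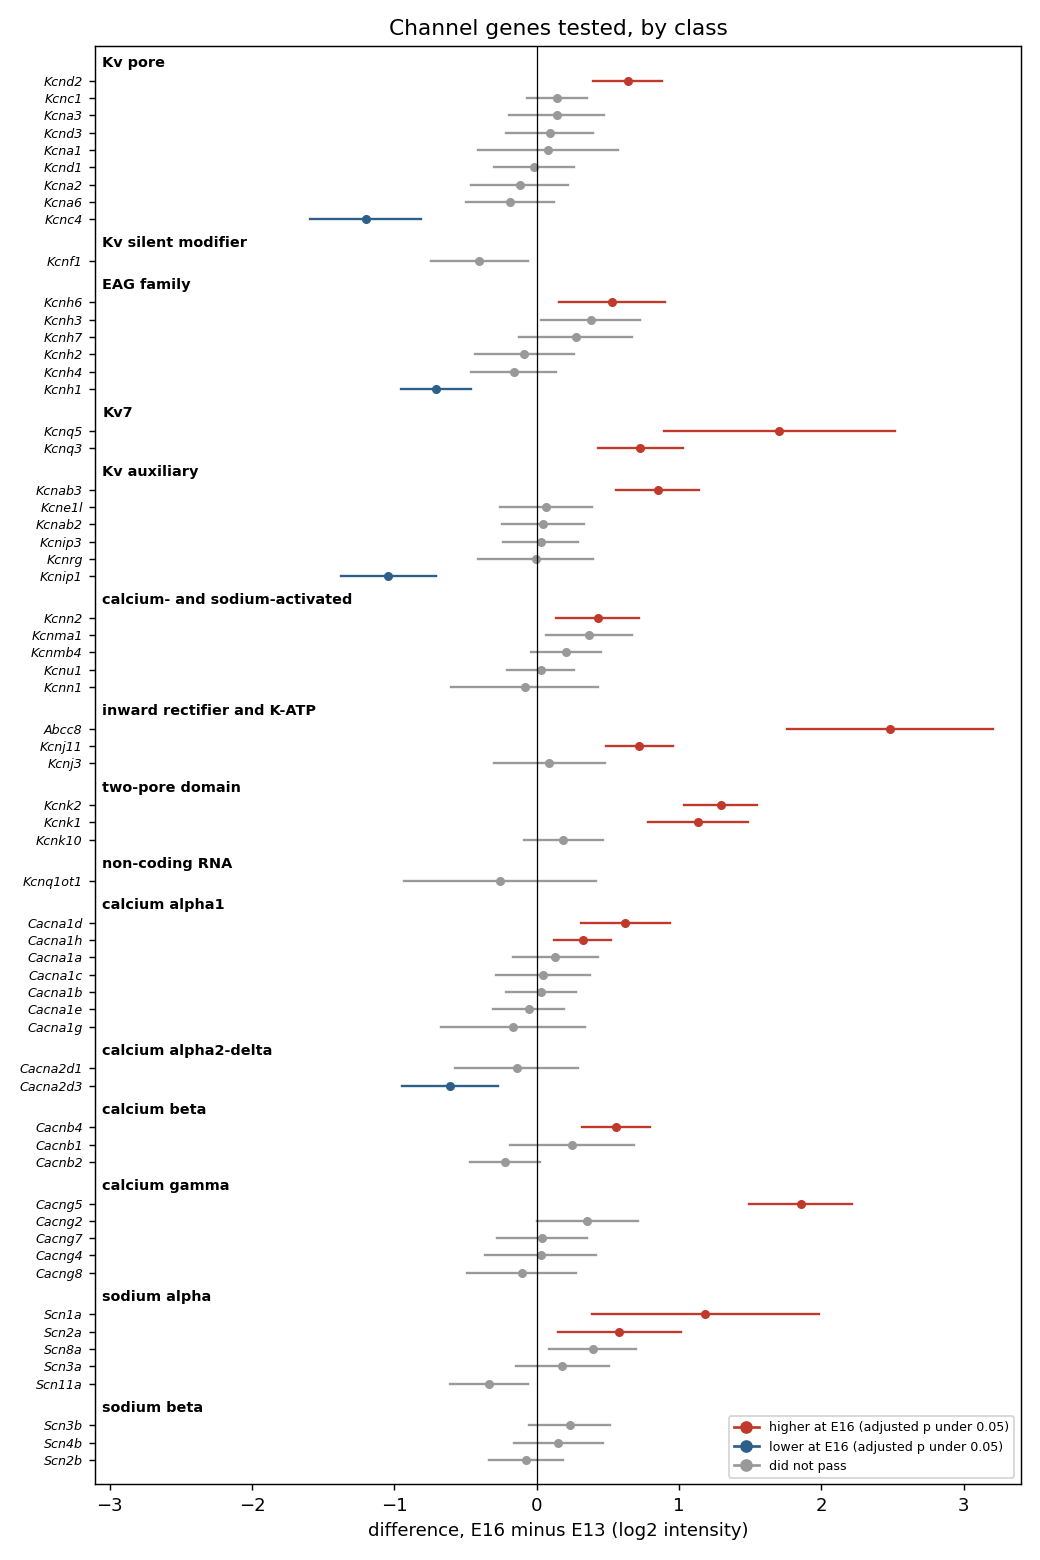
Difference between E16 and E13 (log2, horizontal axis) of each of the 61 tested channel genes, grouped by class, with 95% confidence intervals and colour by the result of the limma test. Points right of 0 are higher at E16, where 16 genes passed, and points left of 0 are lower, where 4 passed, and the differences reach 2.48 for Abcc8 and -1.20 for Kcnc4.

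RefSeq promoter entries run from 250 bases before to 50 bases after a listed start in GRCm38.p6. Of the 68 entries of tested channel genes, 25 reach the 5′ end of their gene in the GRCm38.p6 gene table, and 43 lie inside the gene as that table spans it, among them every entry of Kcnk2, Kcnk1 and Kcnc4. Printed here, 5′ to 3′ on the gene's strand, are the entries that reach the 5′ end for called genes with a difference of at least 2-fold and no overlap between the stages, one gene that rose and one that fell, to show the start regions of genes with large differences. The array files name no genome build, and the array measured transcripts, not promoters.
Cacng5, chr11:107915006-107915305, minus strand: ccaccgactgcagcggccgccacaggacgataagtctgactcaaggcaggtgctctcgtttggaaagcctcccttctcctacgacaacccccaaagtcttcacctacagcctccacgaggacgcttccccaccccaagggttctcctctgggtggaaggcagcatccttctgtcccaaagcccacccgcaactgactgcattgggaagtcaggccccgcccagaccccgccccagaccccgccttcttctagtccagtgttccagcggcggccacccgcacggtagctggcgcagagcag
Kcnip1, chr11:33993144-33993443, minus strand: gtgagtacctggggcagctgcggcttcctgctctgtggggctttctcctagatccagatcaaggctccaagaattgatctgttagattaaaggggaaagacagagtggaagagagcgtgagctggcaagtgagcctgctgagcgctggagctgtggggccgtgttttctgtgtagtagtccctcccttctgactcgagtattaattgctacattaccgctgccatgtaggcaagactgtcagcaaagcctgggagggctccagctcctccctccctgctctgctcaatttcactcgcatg
The sequences searched for on both strands were CAGATG, the proneural E-box bound by Neurog2 and related factors, TATAAA, the cyclic AMP response element TGACGTCA, and TTCAGCACC, the left part of the RE1 element bound by the repressor Rest. Neither printed window held any of them, while both other entries of Kcnip1 and 1 of the 4 of Kcnk2 held the E-box. Over the 68 entries, 9 (13.2%) held the E-box, against 17.2% of all 32851 entries, and of the 25 that reach the 5′ end, 2 held it. TATAAA was in 2 (2.94%, against 13.6% of all entries), TGACGTCA in 0 (against 1.79%) and TTCAGCACC in 1, that of Kcnh6 (against 0.371% of all entries). Their median GC content was 62.5%, against 52.7% over all entries. All entries include genes that were not detected, while the 68 are of tested genes only, so these are unlike sets. A comparison with the entries of all tested genes was not made. A match is a string of letters and not a binding site, and none of the motifs searched contains another.

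Both subunits of the ATP-sensitive potassium channel rose at E16. Abcc8 encodes the sulfonylurea receptor, the regulatory subunit that senses nucleotides, and Kcnj11 encodes the inward rectifier pore. The channel closes when ATP is high and so ties the membrane potential to metabolism, as known best in pancreatic beta cells. Abcc8 levels were 10.07, 9.13, 9.05, 8.82 and 8.63 on the 5 E16 arrays, and from 5.42 to 7.46 with a median of 6.71 on the E13 arrays. Every E16 array lay above every E13 array, and the difference of 2.48 (SE 0.34, adjusted p = 7.15e-05) is a fold of 5.59. Kcnj11 was low at both stages, with 5.91, 5.83, 5.69, 5.59 and 5.65 at E16, against values from 4.84 to 5.18 with a median of 4.99 at E13. It was detected on 5 of 5 E16 arrays and 2 of 6 E13 arrays, so E16 alone met the detection filter. Its difference was 0.72 (SE 0.11, adjusted p = 2.05e-04) with no overlap. Abcc8 and Kcnj11 lie next to each other on chromosome 7 in the GRCm38.p6 gene table, with 0 protein-coding genes between them. Of the 14 members of the inward rectifier class, the only other one tested was Kcnj3, a pore of G protein-gated channels, at 0.09 (adjusted p = 0.764).

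Two-pore domain channels carry the background leak of potassium, and both Kcnk2 and Kcnk1 rose. Kcnk2 (TREK1 protein) opens on membrane stretch, warmth and fatty acids. Its levels were 9.28, 9.44, 9.26, 9.61 and 9.59 at E16, against values from 7.87 to 8.44 with a median of 8.16 at E13. The stages were separated by more than the spread within either, and the difference was 1.29 (SE 0.12, adjusted p = 1.94e-06). Kcnk1 (TWIK1 protein) had levels of 6.60, 7.33, 7.16, 7.32 and 7.61 at E16, against values from 5.84 to 6.32 with a median of 6.06 at E13. E16 replicate 1 was the lowest of its stage and still above the highest E13 array, and the difference was 1.14 (SE 0.16, adjusted p = 1.16e-04). The only other tested member was Kcnk10, which encodes a close relative of the Kcnk2 channel, at 0.19 (adjusted p = 0.319), and the other 11 of the 14 were not tested.

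Kcnq3 and Kcnq5, pores of the slow non-inactivating M current that acetylcholine suppresses in neurons, were both higher at E16. Kcnq3 levels were 6.08, 6.44, 6.73, 6.54 and 6.66 at E16, against values from 5.57 to 6.0 with a median of 5.75 at E13. The arrays did not overlap, although E16 replicate 1 lay only just above the highest E13 array, and the difference was 0.73 (SE 0.14, adjusted p = 0.00124). Kcnq5 levels were 7.47, 7.38, 6.88, 5.71 and 4.98 at E16, against values from 4.43 to 5.31 with a median of 4.72 at E13. E16 replicate 5 lay within the E13 range while E16 replicates 1 to 3 lay well above it. Kcnq5 was detected on 4 of 5 E16 arrays and 1 of 6 E13 arrays, and its difference of 1.70 (SE 0.38, adjusted p = 0.00362) moved between 1.07 and 2.48 over the alternatives run.

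**Figure D3:**
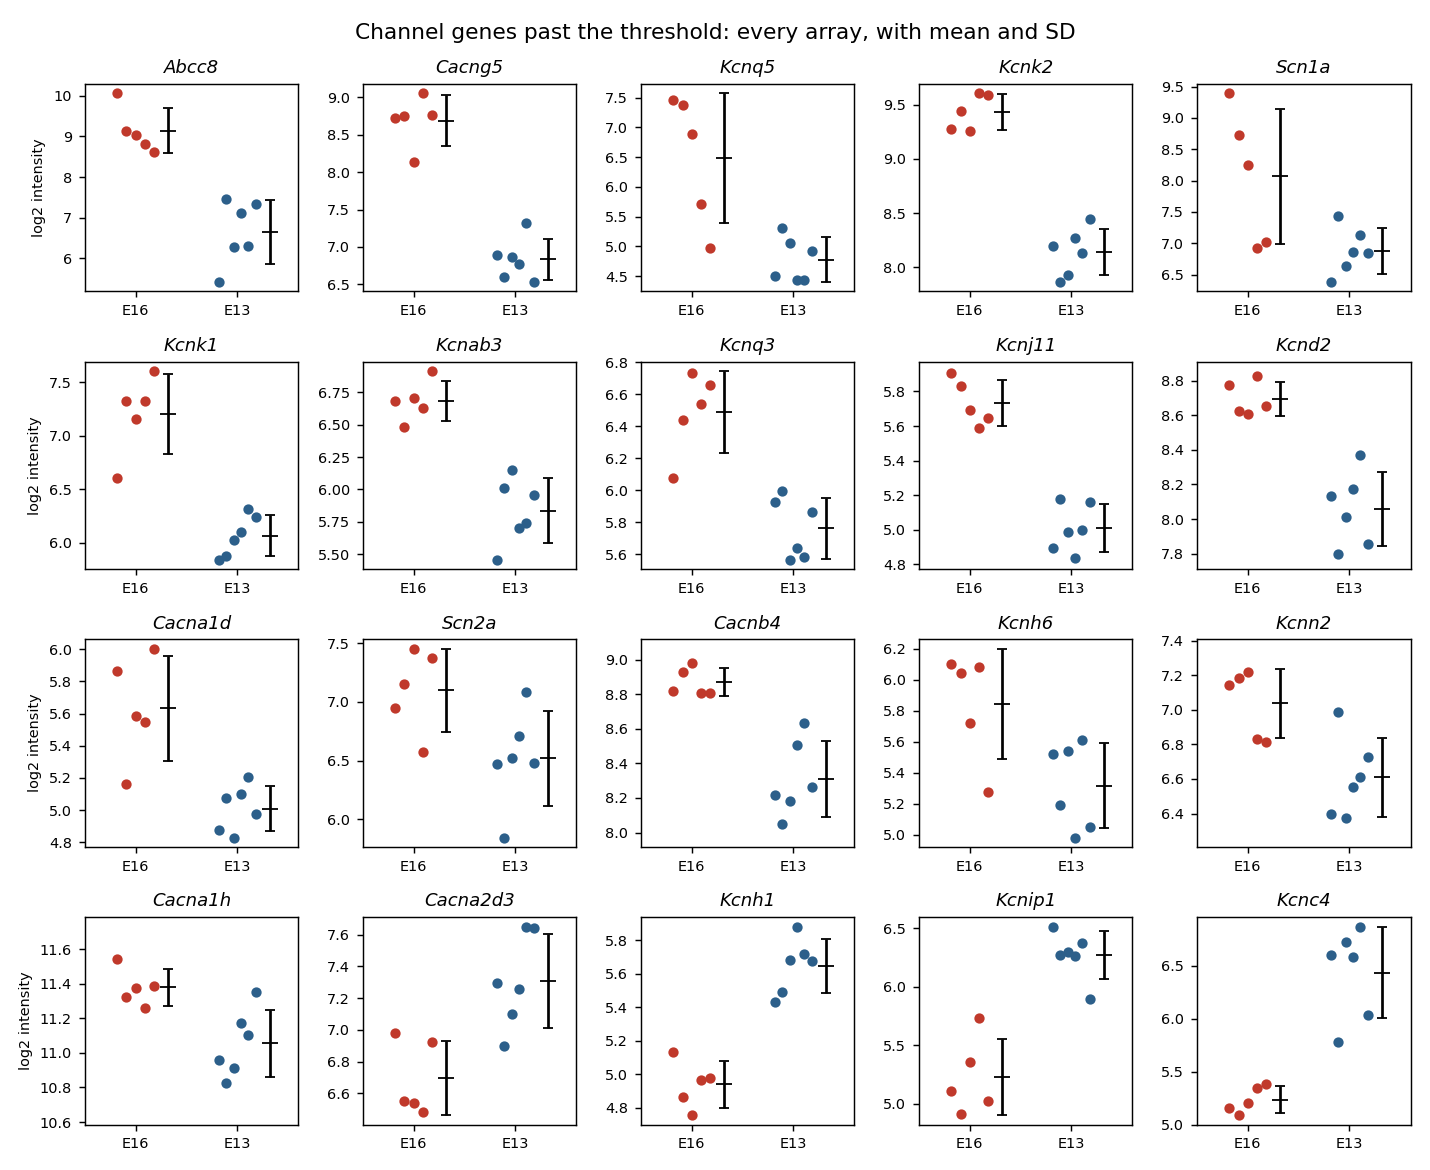
Normalized log2 intensity of the channel genes that passed the test, one panel per gene, with E16 arrays left of E13 arrays, each point an array and bars at the mean ± SD. The stages do not overlap for Abcc8, Kcnk2, Kcnk1 and Cacng5, while for Scn1a and Kcnq5 the E16 arrays spread over more than 2 log2 units.

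Of the 9 tested pore genes of the Kv1 to Kv4 families, 1 rose and 1 fell, with a median difference of 0.08. This is 22.2% called, against 27.1% of all genes tested, and 11.1% each way, below the all-gene share in both directions. Kcnd2, a pore of the fast inactivating A-type current, rose, with levels of 8.78, 8.62, 8.60, 8.82 and 8.65 at E16, against values from 7.80 to 8.37 with a median of 8.07 at E13. No arrays overlapped and the difference was 0.64 (SE 0.11, adjusted p = 6.92e-04). Its relative Kcnd3 had a difference of 0.09 (adjusted p = 0.686). Kcnc4, a fast-activating pore that also inactivates, fell, with levels of 5.15, 5.09, 5.20, 5.35 and 5.38 at E16, against values from 5.78 to 6.87 with a median of 6.60 at E13. It was detected on 3 of 5 E16 arrays and 6 of 6 E13 arrays, without overlap, and differed by -1.20 (SE 0.18, adjusted p = 1.69e-04). Kcnc1, another pore of the same family, did not pass, at 0.15 (adjusted p = 0.304). The only tested silent modifier, Kcnf1, which forms no current of its own and alters other pores, had the most negative difference among the genes that did not pass, -0.40 (SE 0.16, adjusted p = 0.0753), and passed as lower with median centring, with array weights, and without E16 replicate 5 or E13 replicate 3.

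Among the 6 tested auxiliary genes of voltage-gated potassium channels, 1 rose and 1 fell (33.3% called, against 27.1% of all genes tested). Kcnab3, a cytoplasmic beta subunit of Kv1 channels, had levels of 6.69, 6.48, 6.71, 6.63 and 6.92 at E16, against values from 5.46 to 6.15 with a median of 5.85 at E13. The difference was 0.85 (SE 0.14, adjusted p = 3.09e-04) and no arrays overlapped. Kcnip1, a calcium-binding partner of the Kcnd pores, moved the other way from Kcnd2. Its levels were 5.11, 4.91, 5.36, 5.73 and 5.02 at E16, against values from 5.90 to 6.51 with a median of 6.28 at E13. E16 replicate 4 was the highest of its stage and remained below the lowest E13 array, and the difference was -1.04 (SE 0.16, adjusted p = 1.59e-04), with detection on 2 of 5 E16 and 6 of 6 E13 arrays. Kcnab2 and Kcnip3, relatives of these genes, had differences of 0.04 (adjusted p = 0.851) and 0.03 (adjusted p = 0.898).

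In the EAG family of 6 tested genes, Kcnh1 fell and Kcnh6 rose (33.3% called, against 27.1% of all genes tested). Kcnh1 encodes the founding EAG channel, known for its activity in dividing cells and tumours. It was detected on 0 of 5 E16 arrays and on 6 of 6 E13 arrays, the only channel gene detected throughout one stage and nowhere in the other. Its measured levels were 5.13, 4.86, 4.75, 4.96 and 4.98 at E16, where they are only a bound, against values from 5.43 to 5.88 with a median of 5.68 at E13, which is at least 1.41-fold lower at E16 (adjusted p = 3.65e-04). Kcnh6, an ERG-type pore, had levels of 6.10, 6.05, 5.72, 6.08 and 5.28 at E16, against values from 4.98 to 5.61 with a median of 5.36 at E13. These overlapped, and its difference of 0.53 (SE 0.17, adjusted p = 0.0346) lost its call in 10 of 23 alternatives, among them leaving out E16 replicate 1, 2 or 4 or E13 replicate 2, 4 or 6 (adjusted p between 0.0623 and 0.0834). Kcnh7, a further ERG pore, differed by 0.27 (SE 0.19, adjusted p = 0.302), with levels of 7.36, 7.75, 7.71, 6.94 and 6.69 at E16, against values from 6.72 to 7.23 with a median of 7.04 at E13. E16 replicates 4 and 5 lay below the E13 median, and leaving both out, a choice made after seeing the data, gave 0.59 (adjusted p = 0.0106). Kcnh2, the ERG pore of the heart, had -0.09 (adjusted p = 0.748).

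Of 5 tested calcium- or sodium-activated potassium channel genes, only Kcnn2 rose (20% called, against 27.1% of all genes tested). Kcnn2 encodes a small-conductance channel opened by calcium bound to calmodulin. Its levels were 7.14, 7.18, 7.22, 6.83 and 6.81 at E16, against values from 6.38 to 6.99 with a median of 6.58 at E13. The stages overlapped, and the difference of 0.43 (SE 0.14, adjusted p = 0.0313) lost its call in 12 of 25 alternatives, among them leaving out E16 replicate 1, 2 or 3 or E13 replicate 1, 3, 4 or 5 (adjusted p between 0.0526 and 0.0809). Kcnma1, the large-conductance channel that needs both calcium and depolarization, differed by 0.37 (SE 0.14, adjusted p = 0.0659), and passed with the mean over kept probes (adjusted p = 0.031) and without E13 replicate 4 (adjusted p = 0.0496) or 6 (adjusted p = 0.0432). Kcnn1, another small-conductance channel, differed by -0.08 (adjusted p = 0.837), with levels of 8.98, 8.80, 8.75, 7.67 and 7.56 at E16, against values from 8.18 to 8.73 with a median of 8.34 at E13. Here E16 replicates 4 and 5 were below every E13 array and E16 replicates 1 to 3 above every E13 array. Leaving out E16 replicates 4 and 5, the choice made after seeing the data, gave a higher call for Kcnn1 as it did for Kcnh7.

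**Figure D4:**
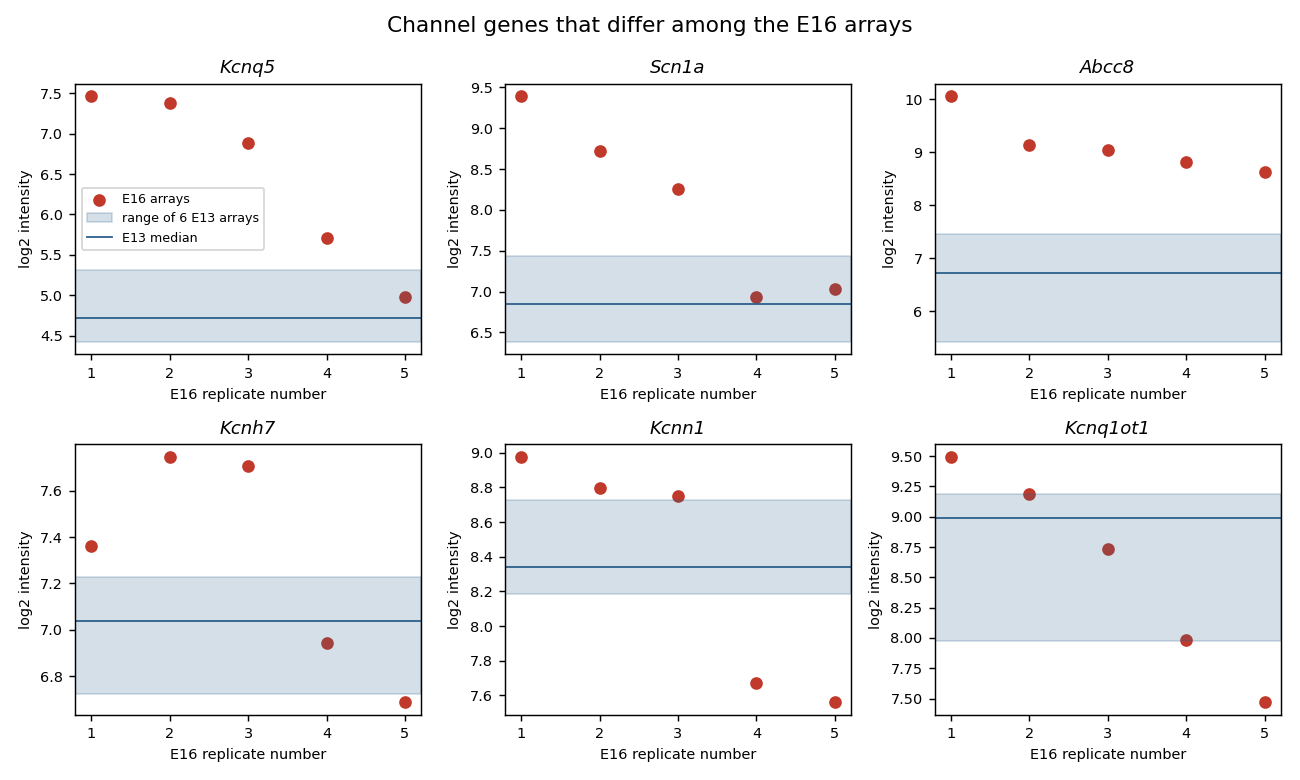
Normalized log2 intensity of selected channel genes whose E16 arrays differ among themselves, one panel per gene, with a point for each E16 array, the shaded range of the 6 E13 arrays and a line at the E13 median. Replicate numbers are names and have no order. In every panel (Kcnq5, Scn1a, Abcc8, Kcnh7, Kcnn1 and Kcnq1ot1), E16 replicates 4 and 5 lie below E16 replicates 1, 2 and 3. The genes shown were picked by hand, so a shared pattern among them is no test. Cacna1g, not shown, has an E16 range of 1.79, with replicate 5 (7.16) above replicates 2 (6.95) and 3 (7.01). Kcnk1, also not shown, has replicate 1 lowest (6.60) and replicate 5 highest (7.61).

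Of the 7 tested calcium channel pores, Cacna1d and Cacna1h rose (28.6% called, against 27.1% of all genes tested). Cacna1h, a T-type pore that opens at low voltage, had levels of 11.54, 11.32, 11.38, 11.26 and 11.39 at E16, against values from 10.82 to 11.35 with a median of 11.03 at E13. The arrays overlapped, with E13 replicate 6 within the E16 range, and the difference was 0.32 (SE 0.094, adjusted p = 0.0182), which did not pass with median centring (0.29, adjusted p = 0.0704), without E16 replicates 1 and 2 (0.29, 0.0837) or without E16 replicate 3 and E13 replicate 1 (0.30, 0.0706). Cacna1d, an L-type pore that opens at more negative voltages than its relative Cacna1c, had levels of 5.87, 5.16, 5.59, 5.55 and 6.0 at E16, against values from 4.83 to 5.20 with a median of 5.02 at E13. It was detected on 4 of 5 E16 and 1 of 6 E13 arrays, with overlapping levels, and differed by 0.62 (SE 0.15, adjusted p = 0.00501). The P/Q-type Cacna1a (0.13, adjusted p = 0.528), N-type Cacna1b (0.03, 0.885), L-type Cacna1c (0.05, 0.863), R-type Cacna1e (-0.06, 0.764) and T-type Cacna1g (-0.16, 0.657) did not pass, each value being the log2 difference and its adjusted p. Cacna1g had an E16 SD of 0.64.

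Auxiliary calcium channel subunits gave the difference with the smallest p among the channel genes. Cacng5, a transmembrane subunit that also modifies AMPA-type glutamate receptors, had levels of 8.72, 8.76, 8.13, 9.06 and 8.77 at E16, against values from 6.53 to 7.32 with a median of 6.82 at E13. Every E16 array was above every E13 array, and the difference was 1.86 (SE 0.17, adjusted p = 1.81e-06), a fold of 3.62. Its neighbour on chromosome 11 in the GRCm38.p6 gene table, Cacng4, had 0.03 (adjusted p = 0.933), and Cacng2, the stargazin gene, 0.36 (adjusted p = 0.128). Cacnb4, a cytoplasmic beta subunit, had levels of 8.82, 8.93, 8.98, 8.81 and 8.80 at E16, against values from 8.05 to 8.64 with a median of 8.24 at E13, without overlap, and a difference of 0.56 (SE 0.11, adjusted p = 0.00171). Cacna2d3, an extracellular alpha2-delta subunit, fell, with levels of 6.98, 6.55, 6.54, 6.48 and 6.92 at E16, against values from 6.90 to 7.65 with a median of 7.28 at E13. E16 replicates 1 and 5 lay within the E13 range, and the difference was -0.61 (SE 0.16, adjusted p = 0.00967).

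Among sodium channel genes, Scn1a and Scn2a, neuronal pores, were higher at E16, and both calls ended in some alternatives. Scn1a levels were 9.40, 8.73, 8.26, 6.93 and 7.03 at E16, against values from 6.39 to 7.43 with a median of 6.85 at E13. E16 replicates 4 and 5 were inside the E13 range and the other 3 above it, and the difference was 1.19 (SE 0.37, adjusted p = 0.0281). Leaving out E16 replicates 1 and 2 together, a choice made after seeing the data, gave 0.52 (adjusted p = 0.222), and leaving out any 1 of 5 arrays (E16 replicates 1, 2 and 3, E13 replicates 1 and 3) also ended the call, with adjusted p between 0.0554 and 0.0750. Scn2a levels were 6.95, 7.15, 7.45, 6.57 and 7.37 at E16, against values from 5.84 to 7.08 with a median of 6.50 at E13. These overlapped, and the difference of 0.58 (SE 0.20, adjusted p = 0.0458) kept its call in 9 of 25 alternatives. It was lost on leaving out E16 replicate 1, 2, 3 or 5 or E13 replicate 1, 2, 3, 4 or 6 (adjusted p between 0.0532 and 0.117). Median centring, no detection filter, the mean over kept probes and the replicate block also ended the call. Of the 3 kept Scn2a probes (0.26 to 0.58), 0 passed when p-values were adjusted over all kept probes. Scn8a, the pore enriched at the mature axon initial segment, differed by 0.39 (SE 0.14, adjusted p = 0.053), and passed in 7 alternatives: an offset of 50, detection p under 0.01 on every array, the mean over kept probes, no mean-variance trend, array weights, and without E16 replicate 4 or E13 replicate 2 (adjusted p between 0.0113 and 0.0495). Scn3a, the pore typical of embryonic brain, differed by 0.18 (SE 0.15, adjusted p = 0.422). Scn11a, known from pain-sensing neurons, differed by -0.34 (adjusted p = 0.0649), and passed as lower without E16 replicate 3 and with no mean-variance trend. Scn2a and Scn3a lie next to each other on chromosome 2 in the GRCm38.p6 gene table.

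The 41 channel genes that did not pass had log2 differences between -0.40 (Kcnf1) and 0.39 (Scn8a), 25 of them above 0 and 16 below. The 95% confidence interval of the difference lay within 1 log2 unit on either side of 0 for all 41, and within 0.5 for 26. Kcnq1ot1, a non-coding RNA transcribed opposite to Kcnq1 and included by its symbol alone, was among them, at -0.26 (SE 0.32, adjusted p = 0.6). Its levels were 9.50, 9.19, 8.73, 7.98 and 7.47 at E16, against values from 7.98 to 9.19 with a median of 8.99 at E13, so that the E16 arrays spanned more than the E13 arrays on both sides.

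Several probes were kept for 19 of the tested channel genes (44 probes). For 13 of these genes all probes had the same sign, for 6 the signs differed, and for 3 a probe other than the brightest gave another call when p-values were adjusted over all kept probes. In Cacna2d1, an alpha2-delta subunit, the brightest probe had -0.14 and the other -1.06 (SE 0.14). In Scn3b, a sodium channel beta subunit, the brightest had 0.23 and another 0.78 (SE 0.11), that other probe being detected on 5 of 5 E16 arrays and 1 of 6 E13 arrays. Cacnb4 had probes at 0.56, 0.71 and -0.06. Which transcripts each probe reads was not tested.

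**Figure D5:**
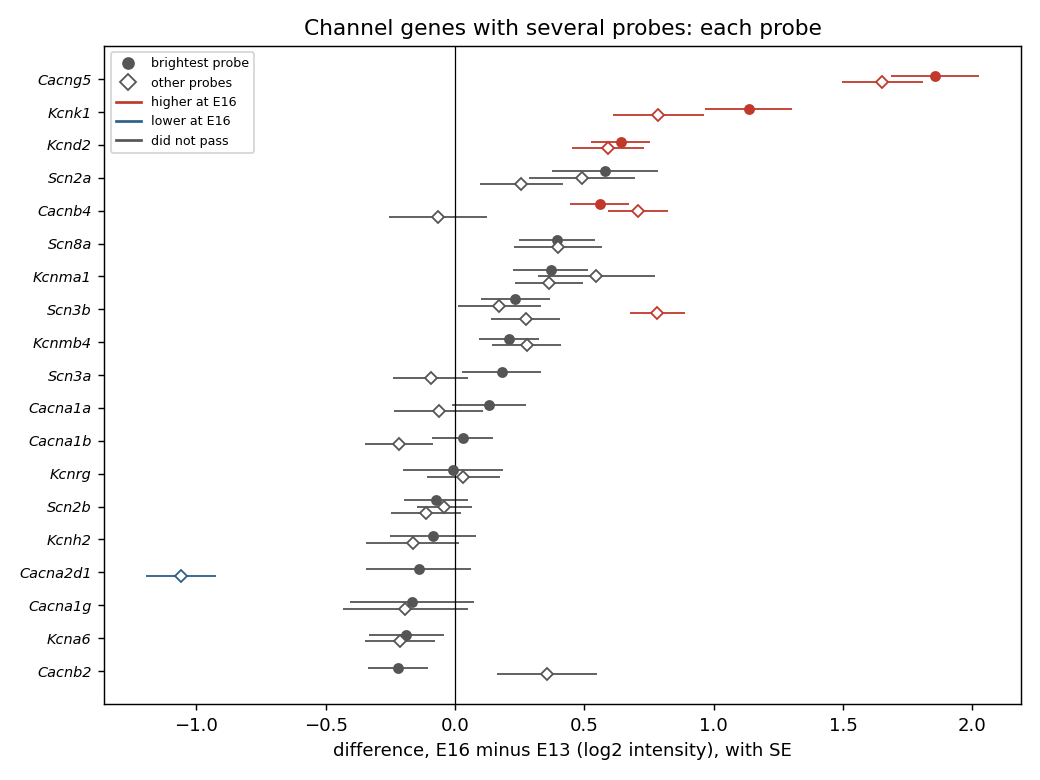
Difference between E16 and E13 (log2, with SE) of each kept probe for the 19 channel genes with several probes, coloured by whether the probe passed the test over all kept probes, with a filled circle for the brightest probe and open diamonds for the others. In Cacna2d1, Cacnb4 and Scn3b the probes of a gene differ in call, with values from -1.06 to -0.14 in Cacna2d1 and from -0.06 to 0.71 in Cacnb4.

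Of 51 partner genes of the channels and other voltage-sensing channels, 29 were tested, and 8 rose, 3 fell and 18 did not pass (37.9% called, against 27.1% of all genes tested), with a median difference of 0.10. Cntnap2 and Cntn2, membrane proteins that cluster Kv1 channels along axons, moved in opposite directions, at -1.64 (SE 0.17, adjusted p = 4.26e-06) and 1.12 (SE 0.21, adjusted p = 9.58e-04). Cntnap2 levels were 10.11, 10.27, 10.95, 10.11 and 10.87 at E16, against values from 11.86 to 12.57 with a median of 12.08 at E13, without overlap. Cntn2 levels overlapped, with 13.728, 13.556, 13.860, 12.919 and 12.586 at E16, against values from 11.820 to 12.595 at E13. E16 replicate 5 lay within that E13 range. Dpp6, a transmembrane partner of the Kcnd pores, also fell, at -1.01 (SE 0.16, adjusted p = 2.85e-04). Hcn2, a pore opened by hyperpolarization, rose, at 1.05 (SE 0.15, adjusted p = 9.03e-05), as did its relative Hcn3 at 0.52 (adjusted p = 5.05e-04). Rims1, a presynaptic protein that binds calcium channels, had 0.77 (SE 0.13, adjusted p = 5.99e-04), and Nedd4l, a ubiquitin ligase that removes sodium and potassium channels from the membrane, 0.72 (SE 0.082, adjusted p = 1.33e-05). Rest, the repressor of many neuronal channel genes, did not pass the detection filter and was not tested.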

How the data were processed

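Total RNA of sorted basal progenitors was extracted with the mirVana kit and labelled with the Illumina TotalPrep-96 kit, per the labels' protocols. The deposited raw intensities are linear, 45281 probes per array, not normalized between arrays, and 26.9% to 29.2% of an array's values are below 0, so background had been subtracted. The deposited detection p-value stands beside each intensity, per the file headers. The authors' deposited log2 value table, whose arrays share 1 distribution, was used only as an alternative. The sources used here do not give the scanner software or its settings. Mean intensities were 349 to 481 per array, and the number of arrays limits the precision (median SE 0.126).

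The neqc function (limma 3.58.1, R 4.3.3) applied normexp background correction from the detection p-values, quantile normalization between arrays, an offset of 16 and log2. Probes detected (p under 0.05) on at least 5 arrays were kept, and the brightest stood for its gene. Differences are E16 minus E13 from lmFit and eBayes with a mean-variance trend, two-sided, with Benjamini-Hochberg adjustment over 10568 genes. The script was tested on simulated data. For a gene never detected at one stage, its level there is an upper bound, and the fold is written as at least N: the mean of the stage that detects it is set against the mean of floors, where an array's floor is its weakest detected signal or the gene's own value, whichever is greater. Where arrays were left out or the replicate number entered as a block, the probes chosen on all 11 arrays were kept. Probe symbols came from the platform table, in which 34885 probes had 1 symbol, 18 several and 10378 none, and Entrez identifiers of 34807 matched the GRCm38.p6 gene table with 0 symbols changed. Promoters came from RefSeq (GRCm38.p6), with entries for 92 of 122 channel genes and 46 of the 61 tested.

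The text names each channel gene past the threshold, each one detected throughout one stage and nowhere in the other, a fixed list of pores, up to 6 partner genes past the threshold, Rest and Eomes. Scn2a1 of that list is Scn2a in the files, and some items of the list are not reported here. The members, lists and rules were chosen with earlier results of these data known. Kcnn1, Kcnq1ot1, Kcnf1, Scn11a, Cacna2d1, Scn3b, Kcnk10, Kcnc1, Kcnip3, Kcnab2, Kcnj3, Kcnh2, Cacng2, Cacng4, Hcn3, Hba-a1 and other genes outside the rule were named after their values were seen.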

Additional observations from a re-analysis of the deposited data

Results flagged for a closer look

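Among the 6 E13 arrays, replicate 1 stood apart from the other 5 for 3 of the genes named here, by a gap large against the whole range of the stage. Cntnap2 was at 12.57 on E13 replicate 1, with the other E13 arrays between 11.86 and 12.10. Kcnh2 was at 8.12 on E13 replicate 1, with the others between 7.10 and 7.42. Kcnq1ot1 was at 7.98 on E13 replicate 1, with the others between 8.77 and 9.19. These are 3 of 104 groups of arrays looked at over 52 genes, and chance flags about 1 in 20. Cajal-Retzius and interneuron markers also had their highest mean levels on E13 replicate 1 (10.03 and 7.09), and their part in these values was not tested. Leaving out E13 replicate 1 together with E16 replicate 3, a choice made after seeing the data, left 11 channel genes higher and 4 lower at E16. Of all genes, 9.62% were higher there, also below the share of the main analysis.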

How the results depend on the processing

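Of the 20 called channel genes, 15 kept their call and direction in every alternative that gave a value (Cacna1d, Cacna2d3, Cacnb4, Cacng5, Kcnh1, Abcc8, Kcnj11, Kcnab3, Kcnip1, Kcnc4, Kcnd2, Kcnq3, Kcnq5, Kcnk1 and Kcnk2). Of these, Kcnh1 passed the detection filter through E13 alone. Kcnc4 and Kcnip1 had enough detected arrays at E13 alone to pass it, and Kcnj11 at E16 alone. Scn1a, Scn2a, Kcnn2, Kcnh6 and Cacna1h lost their call in at least 1 alternative. With 1 array left out, 12 to 16 channel genes were higher and 4 or 5 lower, while 11.2% to 12.8% of all genes were higher. Leaving out E16 replicates 1 and 2 gave 11 higher and 4 lower, leaving out E16 replicates 4 and 5 gave 18 and 4. Of all genes, 10.97% and 12.29% were higher in these settings. The shares over all genes were thus below that of the main analysis whenever arrays were left out. Median centring gave 13 higher and 5 lower channel genes and 966 higher and 1616 lower of all genes. The authors' value table (43 channel genes) and a detection p-value under 0.01 on every array (37 channel genes) each left 1 channel gene lower and 0 potassium channel genes lower, and the stricter detection left 5 potassium channel genes higher. Both give no value for Kcnh1, Kcnc4 and Kcnip1, which are near background at E16, nor for Cacna1d, Kcnh6, Kcnj11 and Kcnq5. The stricter detection also gives none for Abcc8 and Kcnab3, so these calls were not tested there. Testing each probe on its own, or the mean over kept probes, gave 2 calcium channel genes lower. Sodium channel genes higher at E16 numbered 3 with an offset of 50, detection p under 0.01 on every array, the mean over kept probes, no mean-variance trend and array weights, 1 with median centring, without a detection filter and with the replicate block, 0 to 3 with 1 array left out, 0 without E16 replicates 1 and 2, and 0 without E13 replicate 1 and E16 replicate 3. Sodium channel genes lower numbered 1 without a mean-variance trend and 0 to 1 with 1 array left out. The replicate number as a block gave 14 channel genes higher (13 of them shared) and 4 lower, with 10.98% of all genes higher. The numbers share no stated origin: deviations of same-numbered arrays correlated between -0.10 and 0.14, and 1 of 5 E16 arrays correlated best with its own number. Signs turned only for genes that did not pass. Cacna1b turned to -0.035 with median centring, -0.22 with each probe on its own, -0.094 with the mean over probes and -0.059 without E16 replicates 1 and 2 (-0.040 to 0.084 with 1 array left out). Kcnd3 turned to -0.019 without E13 replicate 1 and to -0.017 without that array and E16 replicate 3. Cacna1a turned to -0.0072 without E16 replicates 1 and 2, Cacna1c to -0.088 without E16 replicates 4 and 5 (-0.044 to 0.13 with 1 left out), Cacna1g to 0.093 without the same arrays (-0.39 to 0.058), and Cacna1e to 0.028 without E13 replicate 1 and E16 replicate 3 (-0.13 to 0.022). The cause was not tested.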
